A study of Drosophila melanogaster with 3 samples.

Results

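Chromosome 4, the heterochromatin sequences of the other chromosomes and the unplaced sequences of the Drosophila melanogaster genome carried 284 of the 6834 ORC2 peaks called in replicate 1 and 274 of the 7389 called in replicate 2. They also carried 68 of the 4230 peaks in the authors' list for the whole series. Members were chosen by the name of the sequence alone: chromosome 4, the 5 sequences 2LHet, 2RHet, 3LHet, 3RHet and XHet (called the Het sequences here), and U. Peaks on the large arms 2L, 2R, 3L, 3R and X served as background. The data were chromatin immunoprecipitation and sequencing (ChIP-seq) of ORC2 in S2-DRSC cells, a male line derived from late fly embryos, grown without synchronisation and with no treatment or second genotype named. The antibody was a crude rabbit polyclonal serum raised against the whole purified protein. There were 2 ORC2 samples, from separate extractions, and 1 input DNA sample, whose data were not analysed here. Whether separate cultures lay behind the extractions is not given, so differences between the replicates may be technical.

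ORC2 belongs to the origin recognition complex (ORC), which binds DNA, loads the replicative helicase and so licenses places where DNA replication can start. Heterochromatin is the compact, repeat-rich part of the genome that lies largely around centromeres and usually replicates late in S phase. In Drosophila its hallmark protein HP1 has been found to bind ORC. Chromosome 4 is a small chromosome whose gene-bearing part is interspersed with repeats and coated with HP1. The Het sequences are assembled pieces of heterochromatin assigned to an arm, and U strings together pieces with no assigned place. A distance on U, and across unjoined pieces of a Het sequence, is therefore a distance in the assembly and need not be one along a chromosome. No chromatin mark was measured in the series, so the names of the sequences could not be checked against one.

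Coordinates are those of FlyBase release 5, per the file headers. Genes and base sequences at the sites are not given, since no genome or annotation of that release was used here. Each peak has a width and a score from the PeakSeq caller, which compares ChIP reads with control reads. What the score is relative to, and whether it was scaled per sequence, is not given in the sources used here. Read depth is unknown, because the lists hold no counts. A site below is a peak of the whole-series list. Each of the 68 sites spanned the outer edges of 1 peak of replicate 1 and 1 peak of replicate 2 that touched by at least 1 bp, and its score was the mean of their scores in all 68 cases, to within 0.0001. No pair of peaks within a replicate was closer than 201 bp on these sequences, or than 200 bp on the large arms.

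Over peaks of all widths, agreement between the replicates was lower on chromosome 4 than on the large arms, and lower again on the Het sequences and on U. On chromosome 4, 30 of 75 peaks in replicate 1 were touched by a replicate 2 peak (40%, with an exact binomial 95% interval of 28.9 to 52.0%). In replicate 2, 30 of 72 had a touching replicate 1 peak (41.7%, interval 30.2 to 53.9%). The share on the large arms was 64.5% (4228 of 6550) in replicate 1 and 59.3% (4217 of 7115) in replicate 2. The Het sequences had 22 of 122 (18.0%, 11.7 to 26.02%) and 22 of 126 (17.5%, 11.3 to 25.2%). U had 16 of 87 (18.4%, 10.9 to 28.1%) and 16 of 76 (21.1%, 12.5 to 31.9%). When 50% of both peaks had to overlap, the Het shares fell to 8.20% and 7.94%, and among the 50% of peaks with the highest scores the U share in replicate 1 was 9.09%. The intervals of Het and U overlapped each other, that of U reached into the chromosome 4 interval in replicate 2, and those of all 3 sets lay below the large arms' shares. Peaks are clustered and share a library, so the intervals cover the counting of peaks only, and no test was run between sets of sequences.

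**Figure D1:**
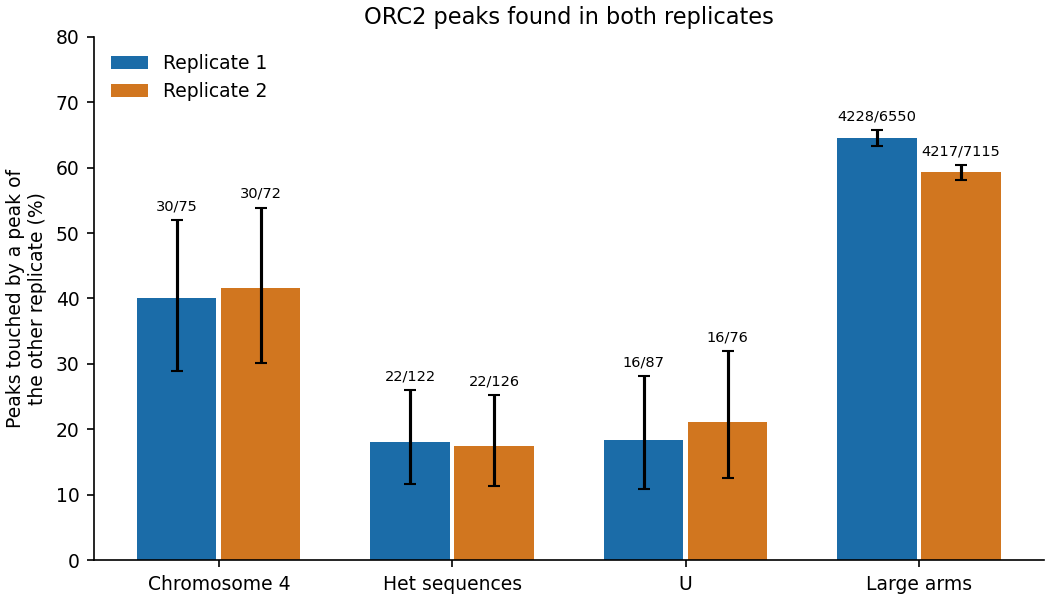
Percent of ORC2 peaks touched by a peak of the other replicate, for chromosome 4, the Het sequences, U and the large arms (bars, blue for replicate 1 and orange for replicate 2; whiskers, exact binomial 95% intervals; numbers, touched peaks over all peaks). Chromosome 4 is at 40% and 41.7%, Het and U lie between 17.5% and 21.1%, and the large arms are at 64.5% and 59.3%.

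Among the Het sequences, 3RHet had 7 of 24 replicate 1 peaks (29.2%, 12.6 to 51.1%) and 7 of 27 replicate 2 peaks (25.9%, 11.1 to 46.3%) touched by the other replicate. On 3LHet these were 7 of 45 (15.6%) and 7 of 43 (16.3%), and on 2RHet 5 of 44 (11.4%) and 5 of 46 (10.9%). The 3 intervals overlapped widely in each replicate (3.79 to 24.6% on 2RHet and 6.49 to 29.5% on 3LHet in replicate 1), so no order among them is shown. 2LHet had 5 peaks in each replicate and shared 1. XHet had 4 and 5 peaks and shared 2.

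Even wide peaks often lacked a partner on the Het sequences and U. Of peaks of 200 bp or more, 2 of 9 on the Het sequences were touched by the other sample in replicate 1 (22.2%, 2.81 to 60.0%) and 3 of 13 in replicate 2 (23.1%, 5.04 to 53.8%), against 93.8% and 91.2% on the large arms. On U these were 11 of 23 (47.8%, 26.8 to 69.4%) and 12 of 26 (46.2%, 26.6 to 66.6%). On chromosome 4, 8 of 15 such peaks (53.3%, 26.6 to 78.7%) were touched in replicate 1 and 10 of 12 (83.3%, 51.6 to 97.9%) in replicate 2. These intervals overlap, and that of replicate 2 includes the large arms' share. Below 50 bp, chromosome 4 had 2 of 19 peaks touched in replicate 1 and 0 of 16 in replicate 2, where an exact interval reaches 20.6%, so a share near the large arms' 16.9% is not excluded.

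The 7 wide replicate 1 peaks of chromosome 4 without a partner had a median score of 2.29, against 4.24 for the 8 that had one. In replicate 2 the medians there were 1.79 for 2 without and 4.86 for 10 with a partner. Wide peaks of the large arms had this order too. Their medians without and with a partner were 2.22 and 3.61 in replicate 1, and 2.80 and 3.86 in replicate 2. The Het peaks of this width had the same order, with 2.87 for 7 without and 6.68 for 2 with a partner in replicate 1, and 2.56 for 10 and 3.15 for 3 in replicate 2. On U the wide peaks without a partner scored slightly higher instead, with 2.71 against 2.66 in replicate 1 and 2.61 against 2.25 in replicate 2. The widest unmatched peak of chromosome 4, at 590696 to 591271 (576 bp, score 2.82), lay 11898 bp from the nearest replicate 2 peak, and the next, at 946695 to 947237 (543 bp, score 1.81), lay 4675 bp away. On U the widest peak of either list, at 4476710 to 4477775 (1066 bp, score 2.02), was called in replicate 2 alone, with the nearest replicate 1 peak 157413 bp away. The widest single-replicate peaks of the Het sequences were 3RHet, 790537 to 791088 (552 bp, score 1.38), in replicate 1, which lay 424 bp from a replicate 2 peak, and 2RHet, 2157541 to 2157916 (376 bp, score 1.63), in replicate 2, which lay 45258 bp from a replicate 1 peak. These 5 were chosen after their values were seen.

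Most peaks without a touching partner had no peak of the other sample within 500 bp. On chromosome 4, 6 of 45 such peaks of replicate 1 and 9 of 42 of replicate 2 had a peak of the other sample within 500 bp, and the median distance to it was 4303 bp and 2574 bp. Among Het peaks 10 of 100 and 10 of 104 did, with medians of 11333 bp and 8743 bp. On U 8 of 71 and 7 of 60 did, with medians of 4621 bp and 5678 bp. The same counts were not made for the large arms, so they are not shown to be particular to these sequences. Such distances also depend on how densely peaks lie, which differed between the sets.

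Peaks were narrowest on the Het sequences, with a median of 60.5 bp in both replicates (interquartile range 21.25 to 96 bp and 25 to 110 bp). Medians were 100 bp (51.5 to 154.5 bp) and 89.0 bp (53.0 to 133.0 bp) on chromosome 4, and 96.0 bp (59.0 to 206.0 bp) and 100 bp (34.75 to 293.5 bp) on U. The large arms had 100 bp and 103 bp. Peaks under 20 bp made up 23.8% and 22.2% of the Het peaks in replicates 1 and 2, against 9.95% and 10.2% on the large arms. On chromosome 4 they were 8.0% and 16.7%, and on U 5.75% and 19.7%, so that on these 2 the replicates lay on opposite sides of the large arms.

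At sites called in both samples the Het sequences were again the narrowest, but U was now above the large arms. U sites were the widest, with a median of 410.5 bp (interquartile range 305 to 713 bp), and 12 of 16 (75%) were 300 bp or more, against 26.9% of the large-arm sites. The medians were 158.5 bp (133 to 273 bp) on chromosome 4 and 118.5 bp (82.0 to 160 bp) on the Het sequences, against 189 bp (128 to 317 bp) on the large arms. A site merges the extents of both peaks and is therefore at least as wide as either.

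Scores of 10 or more were frequent at the sites of chromosome 4 and of the Het sequences. They were reached by 7 of 30 chromosome 4 sites (23.3%), 5 of 22 Het sites (22.7%) and 2 of 16 U sites (12.5%), against 1.83% of the large-arm sites. A site's score is a mean, and on chromosome 4 only 2 of the 30 replicate 1 peaks at sites reached 10, against 7 of 30 in replicate 2. At Het sites 6 and 5 of 22 did, and at U sites 2 and 2 of 16. Among touched peaks of the large arms 1.49% and 2.70% did. In the single lists, 8.0% of chromosome 4 peaks in replicate 1 and 20.8% in replicate 2 scored 10 or more, against 1.57% and 3.25% on the large arms. On the Het sequences these were 10.7% and 10.3%, and on U 5.75% and 11.8%. The chromosome 4 share thus differed between the samples by more than 2-fold, as the large arms' did. Median scores differed less. Over all peaks they were 3.85 and 4.48 on chromosome 4, 4.34 and 3.56 on the Het sequences and 4.19 and 3.28 on U, against 3.39 and 3.61 on the large arms. On the Het sequences and U, replicate 1 was above the large arms and replicate 2 was below them.

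On U the peaks found in both samples had lower scores than those found in 1. The median was 2.73 for those shared and 4.45 for those unshared in replicate 1, and 2.34 and 3.41 in replicate 2. Elsewhere the order was the other way in both replicates. Shared and unshared peaks had medians of 4.51 and 3.68 on chromosome 4 in replicate 1 and 4.92 and 3.91 in replicate 2. On the Het sequences these were 4.72 and 4.21 in replicate 1 and 4.80 and 3.33 in replicate 2, and on the large arms 3.54 and 3.13, and 3.80 and 3.31. The difference between U and the other sequences was not tested.

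**Figure D2:**
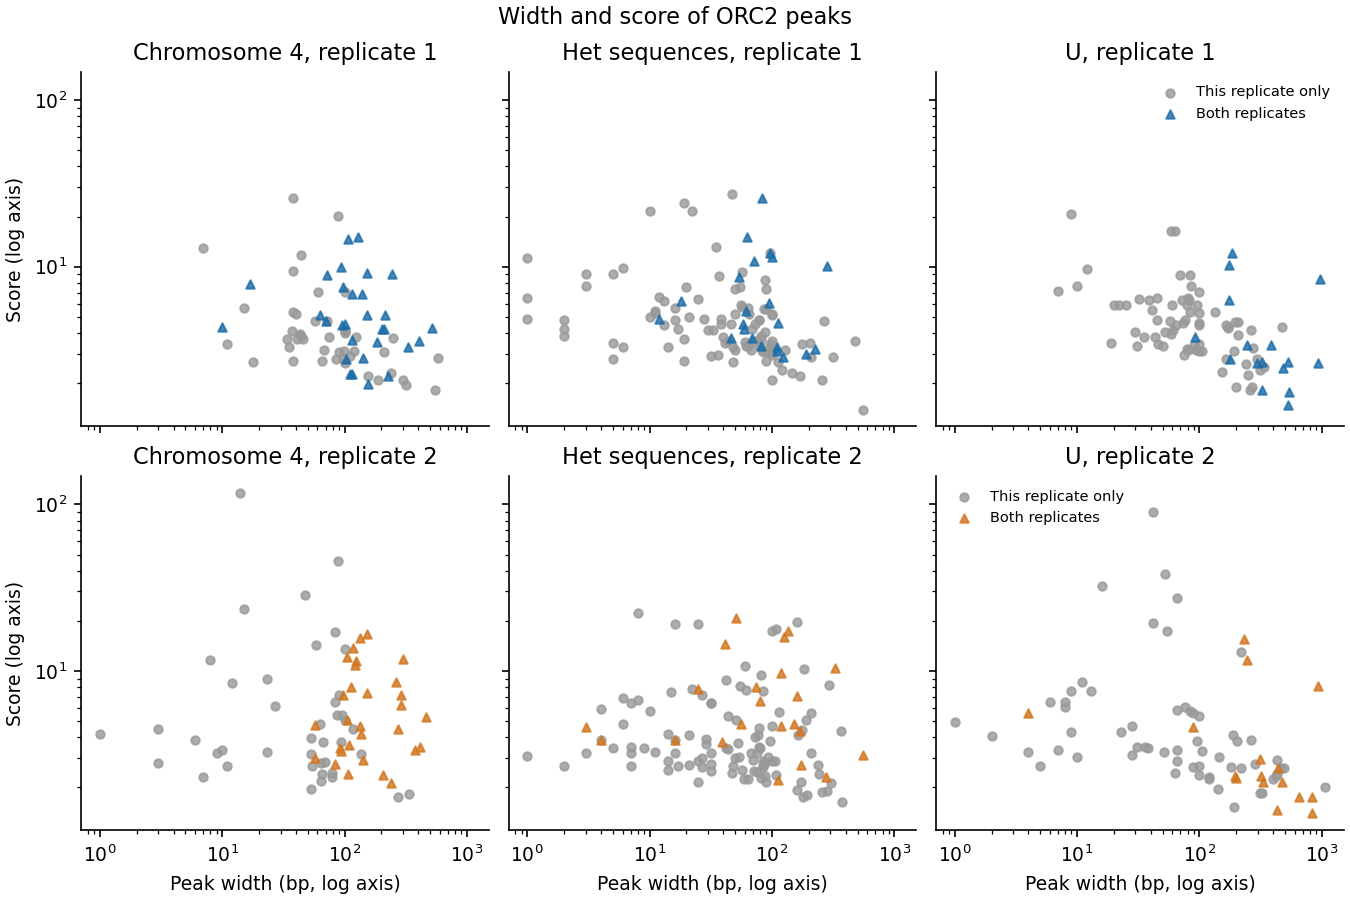
Score against peak width (bp), both on log axes, for every ORC2 peak on chromosome 4, the Het sequences and U (columns) in replicates 1 and 2 (rows). Coloured triangles are peaks touched by a peak of the other replicate and grey circles are those called in 1 replicate. On U the coloured triangles sit mostly at the wide, low-scoring end, and the peak with the highest score in each panel is grey and between 8 and 47 bp wide.

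The sites of chromosome 4 ran from 64361 to 1234522, which were also the first and last called bases of any list there. In 13 windows of 100 kb, the last of which was called only up to 1234522, 10 held at least 1 site. The first window, up to position 99999, held most, with 6 sites, among 7 peaks in replicate 1 and 13 in replicate 2. The window starting at 200000 held 5 sites, among 6 and 5 peaks. The 3 windows without a site, starting at 100000, 300000 and 1100000, were not without peaks, with 4 and 3, 3 and 3, and 3 and 1 in replicates 1 and 2. The longest stretch without a site ran from 230872 to 445388 (215 kb) and had 4 peaks in replicate 1 and 3 in replicate 2, none of them touching. The next 2 ran from 1072188 to 1234399 (162 kb, with 3 and 1) and from 718351 to 856517 (138 kb, with 5 and 3).

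The highest-scoring site of chromosome 4, at 64361 to 64515, was also its first and scored 15.9 (15.1 in replicate 1 and 16.6 in replicate 2). The second, at 979076 to 979215, scored 14.3 (14.7 and 13.8). Both were between 140 and 155 bp wide and their replicate scores were less than 1.1-fold apart. The third, at 200046 to 200178, scored 11.7, but its replicates were further apart than at any other of the 30 sites (7.57 and 15.8, 2.09-fold).

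Among the next 7 by score, the site at 76941 to 77238 had 10.4 (9.05 and 11.8), that at 856518 to 856651 had 10.4 (9.94 and 10.8) and that at 1234400 to 1234522 had 10.2 (8.87 and 11.5). The last of these ended at the last called base of chromosome 4, 162 kb from its nearest neighbour. The site at 226601 to 226704 scored 10.02 (7.89 and 12.2), with a replicate 1 peak of 17 bp inside a replicate 2 peak of 104 bp. Scores were 8.62 (9.23 and 8.005) at 90236 to 90388, 7.12 (6.84 and 7.40) at 717427 to 717597 and 7.05 (6.90 and 7.20) at 681097 to 681385. In 8 of these 10 sites the replicate 2 score was the higher, against 70% of all 30 sites and 61.8% of the pairs on the large arms. The lowest of the 30, at 1010084 to 1010348, scored 2.05 (1.97 and 2.12).

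Sites on chromosome 4 stood in short runs about as often as on the large arms. With neighbours less than 5 kb apart counted as a run, 18 of its 30 sites (60%) fell into 7 runs and 12 stood alone, against 59.3% of the large-arm sites in runs. The median distance between neighbouring sites was nevertheless longer on chromosome 4, at 18347 bp against 9497 bp on the large arms. The run with most sites, at 715885 to 718350, had 4 within 2466 bp, scoring 4.91, 3.97, 7.12 and 3.49. Runs of 3 lay at 87506 to 90388 (scores 5.25, 4.42 and 8.62) and at 200046 to 202587 (11.7, 3.30 and 2.87). Of the 22 Het sites, 6 (27.3%) fell into 3 pairs, and on U none of 16 sites had a neighbour within 5 kb; the nearest pair there was 39673 bp apart.

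All peaks, and not sites alone, were spaced more widely on Het and U. The median distance to the next peak was 8693 bp and 6727 bp on chromosome 4, 28712 bp and 19862 bp on the Het sequences, and 17543 bp and 40298 bp on U, while the large arms had 6083 bp and 4886 bp. Not every Het sequence was alike. XHet, with 4 and 5 peaks, had medians of 8000 bp and 2245.5 bp, and 2LHet, with 5 and 5, had 10541 bp and 2813.5 bp. In replicate 2 both were below the large arms. Distances under 1 kb made up 14.9% and 21.1% on chromosome 4, 7.69% and 15.7% on the Het sequences and 9.30% and 6.67% on U, against 22.1% and 25.4% on the large arms. How much of these sequences short reads can cover was not examined.

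**Figure D3:**
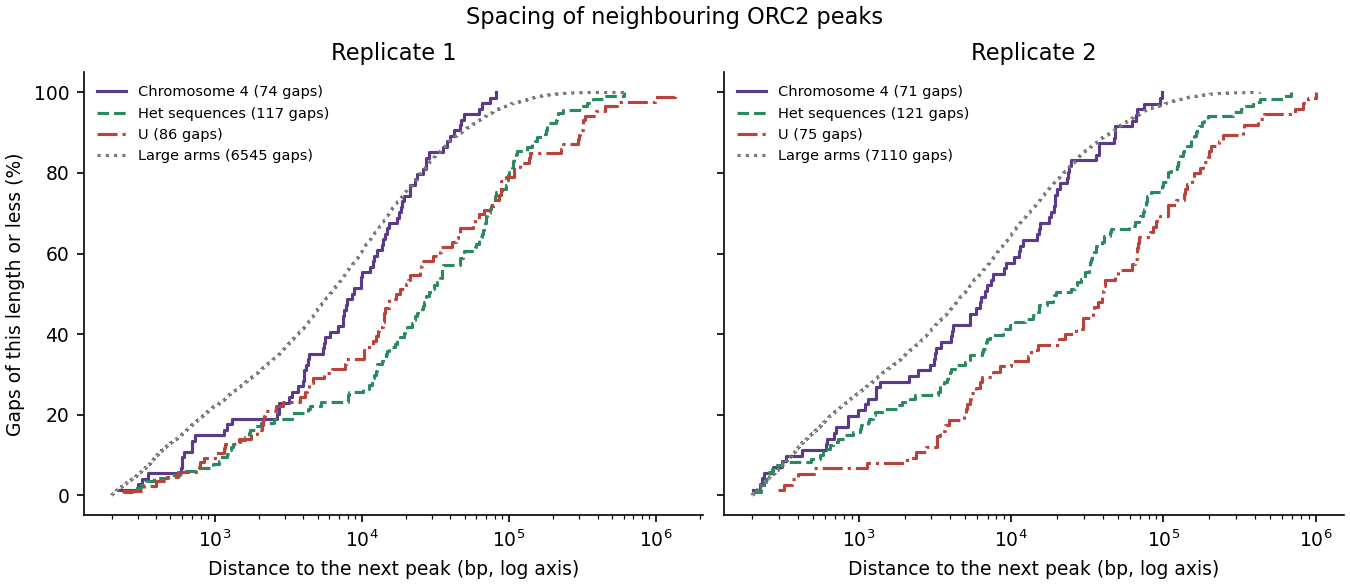
Cumulative percent of distances between neighbouring ORC2 peaks (bp, log axis) in replicate 1 (left) and replicate 2 (right), with a solid line for chromosome 4, dashed for the Het sequences, dot-dashed for U and dotted for the large arms. The chromosome 4 line runs close to the large arms' at its upper end, with medians of 8693 bp and 6727 bp, and the Het and U lines lie to the right.

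Among the Het sites the highest scores were on 3RHet. The site at 1808484 to 1808619 scored 21.0 (25.9 in replicate 1 and 16.01 in replicate 2), the site at 1931018 to 1931125 scored 15.8 (10.8 and 20.8) and the site at 1824132 to 1824194 scored 14.8 (15.1 and 14.4). A second peak, at 1823811 to 1823866, lay 265 bp before the last of these and scored 4.83 (4.86 and 4.80). The other sites of 3RHet scored lower, at 1705968 to 1706117 (4.07; 3.34 and 4.80), 1709539 to 1709716 (2.80; 2.88 and 2.73) and 2516805 to 2517461 (3.06; 2.98 and 3.15). The last was the widest Het site, at 657 bp, and its replicates overlapped over 87 bp. All 7 sites of 3RHet began at or after 1705968, although 10 of its 24 replicate 1 peaks and 8 of its 27 replicate 2 peaks lay before that position. Each other Het sequence also had peaks before its first site. In replicates 1 and 2 these were 6 of 44 and 9 of 46 on 2RHet and 6 of 45 and 8 of 43 on 3LHet. On 2LHet they were 1 of 5 and 4 of 5, and on XHet 1 of 4 and 1 of 5.

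On XHet, the shortest of the sequences by last called base, the site at 84755 to 84888 scored 14.4 (11.4 and 17.4) and the site at 76264 to 76449 scored 3.82 (3.28 and 4.36). Of the 7 sites on 3LHet, the one at 1396720 to 1397060 stood out, with a width of 341 bp and a score of 10.3 that was close in both samples (10.2 and 10.3). The site at 2397682 to 2397800 scored 7.96 (6.25 and 9.68). Middle scores were 4.97 (6.06 and 3.87) at 2145860 to 2145953, 4.21 (4.54 and 3.87) at 1197288 to 1197347 and 3.99 (4.22 and 3.76) at 562363 to 562440. The lowest scores were 2.76 (3.21 and 2.31) at 486045 to 486526 and 2.68 (3.12 and 2.23) at 2242535 to 2242693.

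The 5 sites of 2RHet all scored between 4.16 and 9.89. A pair lay near its end, with 9.89 (12.0 and 7.76) at 3197938 to 3198034 and 6.73 (5.41 and 8.06) at 3199249 to 3199322. The score was 7.61 (8.65 and 6.57) at 1623068 to 1623174, 4.21 (3.74 and 4.68) at 472180 to 472297 and 4.16 (3.71 and 4.61) at 1721115 to 1721184. At the last of these the peaks of the samples met over 2 bp. The single site of 2LHet, at 169112 to 169271, scored 5.84 (4.58 and 7.10).

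The sites on U ranged from narrow with high scores to broad with low ones. The highest scores were at 5630805 to 5631036 (232 bp), with 12.9 (10.2 and 15.6), and at 7457965 to 7458210 (246 bp), with 11.9 (12.1 and 11.7). The widest site, at 7544167 to 7545130 (964 bp), also scored high, at 8.30 (8.49 and 8.11), and 96.7% of it was called in both samples. Next by score were 3575685 to 3575857 (173 bp), with 5.49 (6.36 and 4.63), and 247617 to 247708 (92 bp), with 4.66 (3.78 and 5.55). All 11 other sites scored below 3 and were between 325 and 929 bp wide. The widest of these, at 3535083 to 3536011 (929 bp), scored 2.21 (2.66 and 1.75), and the next, at 5769563 to 5770409 (847 bp), scored 1.45 (1.48 and 1.41). Then came 1974566 to 1975327 (762 bp), with 2.72 (2.47 and 2.98), and 5302641 to 5303336 (696 bp), with 1.78 (1.81 and 1.74). Over the 16 sites, which share both libraries, Spearman's rho of width with score was -0.53. It was -0.22 over the 30 sites of chromosome 4 and -0.32 over the 22 Het sites. No such value is given for the large arms, so this relation is not shown to be particular to these sequences.

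Where both samples called a peak, their scores were close on chromosome 4 and U and less so on the Het sequences. They were within 1.5-fold of each other at 26 of 30 chromosome 4 sites (86.7%), 15 of 22 Het sites (68.2%) and 14 of 16 U sites (87.5%), against 88.9% of 4047 pairs on the large arms. The median log2 ratio of replicate 2 to replicate 1 was 0.12 on chromosome 4 (SD 0.38 over 30 pairs), 0.0053 on the Het sequences (SD 0.49 over 22) and -0.23 on U (SD 0.35 over 16), against 0.10 on the large arms (SD 0.35). Replicate 2 scored higher at 21 of 30 chromosome 4 sites (70%), 11 of 22 Het sites (50%) and 3 of 16 U sites (18.8%), against 61.8% of the pairs on the large arms. Each median was smaller than the SD over its pairs. Spearman's rho between the scores of the replicates was 0.89, 0.87 and 0.86 over these 30, 22 and 16 sites, against 0.78 on the large arms. The control behind each list is not known, and a control common to both could by itself correlate the scores.

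**Figure D4:**
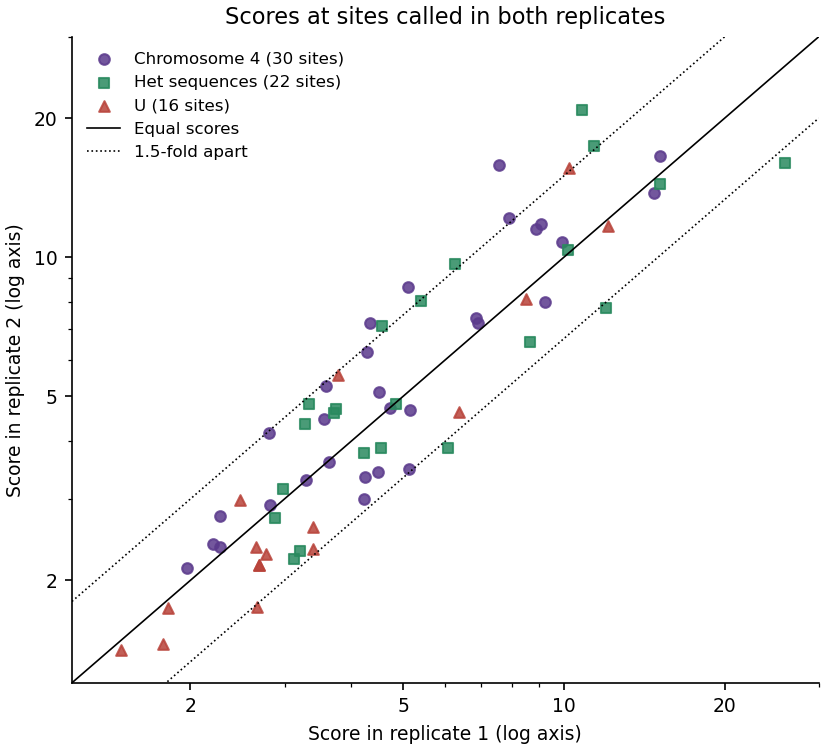
Score in replicate 2 against score in replicate 1 (log axes) at the 68 sites called in both, with circles for chromosome 4, squares for the Het sequences and triangles for U; the solid line marks equal scores and the dotted lines 1.5-fold. The U triangles lie mostly below the solid line, where replicate 1 is higher (13 of 16), and the Het squares cross the dotted lines most often in proportion (7 of 22).

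The part of a site called in both samples was smallest on the Het sequences, and the centres of paired peaks were furthest apart on U. This part is relative to the width of the site, and the Het sites had the lowest median width. The part of a site called in both samples had a median of 57.0% on chromosome 4, 32.1% on the Het sequences and 67.9% on U, against 66.7% on the large arms. At least 50% of the site was called in both at 22 of 30 sites on chromosome 4 (73.3%), 8 of 22 on the Het sequences (36.4%) and 10 of 16 on U (62.5%), against 69.4% on the large arms. The centres of the paired peaks had a median offset of 22.3 bp, 29.5 bp and 39.8 bp, while the large arms had 19 bp. They were within 50 bp at 25 of 30 sites on chromosome 4 (83.3%) and 20 of 22 on the Het sequences (90.9%), against 80.2% on the large arms. On U, where peaks were wider, this held for 9 of 16 (56.3%), and the furthest apart were at 1974566 to 1975327, with centres 364 bp apart and 35 bp in common.

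**Figure D5:**
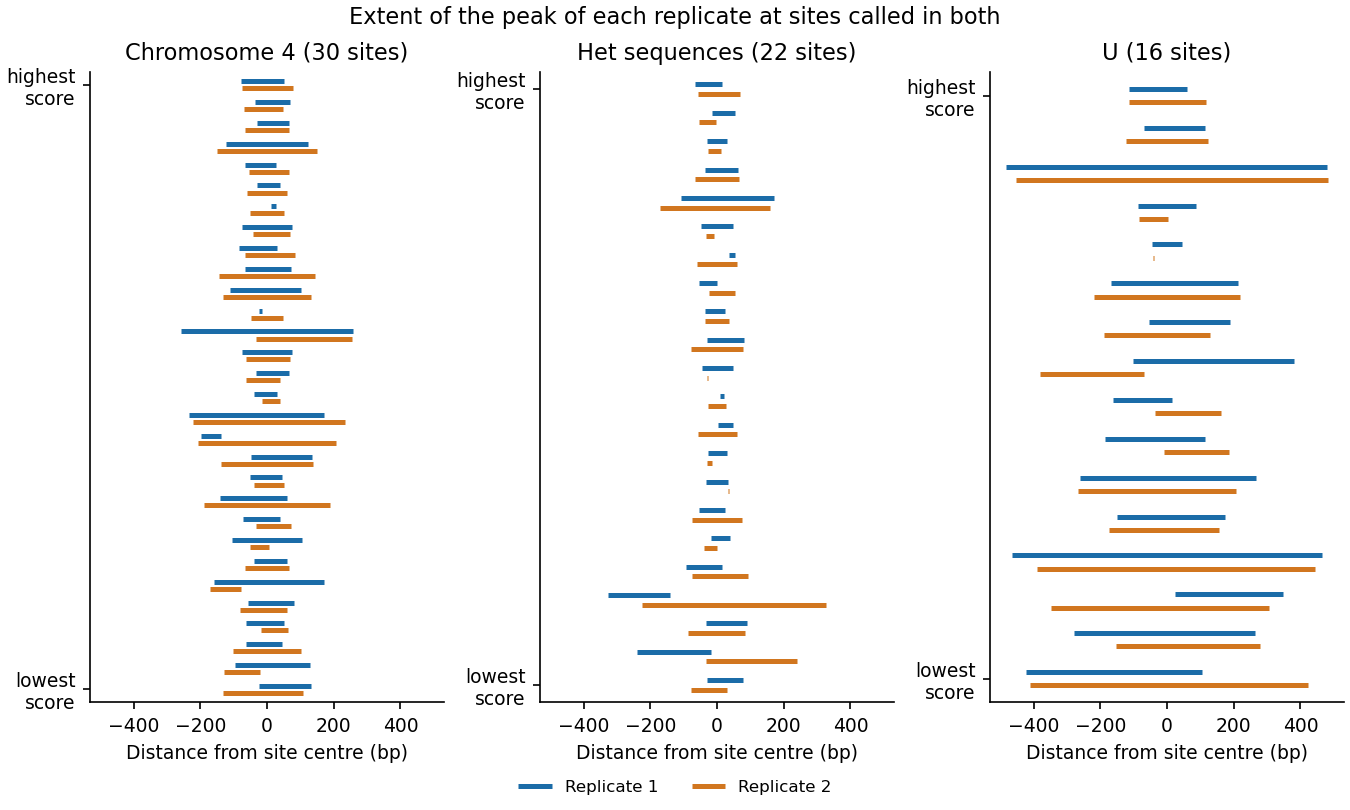
Extent of the replicate 1 peak (blue) and the replicate 2 peak (orange) at each of the 68 sites, as distance in bp from the centre of the site, sorted from the highest score at the top to the lowest at the bottom, for chromosome 4, the Het sequences and U. Het sites are short, at 2 of them replicate 2 called 3 or 4 bp, and the U sites with low scores are broad.

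The highest score on each of the 3 kinds of sequence belonged, in each replicate, to a narrow peak called in that sample alone. On the large arms the highest score also belonged to a peak of 1 sample in replicate 2 (38.3, against 31.1 for the highest touched peak). In replicate 1 it belonged to a touched peak there (35.4, against 29.4 for the highest untouched one). On chromosome 4 a replicate 2 peak of 14 bp at 110499 to 110512 scored 118, and peaks at 507353 to 507440 (88 bp) and 717835 to 717881 (47 bp) scored 46.0 and 28.4. None was touched by a replicate 1 peak. In replicate 1 the unmatched peaks with the highest scores, at 312519 to 312556 (38 bp), 152689 to 152777 (89 bp) and 706059 to 706065 (7 bp), scored 26.03, 20.1 and 13.0. The last of these ranked 5 on chromosome 4, below the matched peaks of 15.1 and 14.7 described above. On U the replicate 2 peaks at 5630256 to 5630297 (42 bp), 3404802 to 3404853 (52 bp) and 1178721 to 1178736 (16 bp) scored 90.3, 38.0 and 32.4. The replicate 1 peak at 2689757 to 2689765 (9 bp) scored 20.8, and those at 153894 to 153952 (59 bp) and 2176048 to 2176110 (63 bp) had an identical score of 16.3.

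The highest unmatched Het peaks of replicate 1 were at 3LHet, 1563428 to 1563474 (47 bp, score 27.3), 2RHet, 2598714 to 2598732 (19 bp, score 24.0), and 3RHet, 184288 to 184309 (22 bp, score 21.6). Those of replicate 2 were at 2LHet, 33281 to 33288 (8 bp, score 22.3), 2RHet, 1621638 to 1621796 (159 bp, score 19.7), and 3RHet, 1935075 to 1935090 (16 bp, score 19.2). Of the 10 peaks with the highest scores, 5 and 3 were touched by the other sample on chromosome 4, 4 and 4 on the Het sequences and 3 and 2 on U. Of the 655 and 712 highest-scoring peaks of the large arms (10% of each list there), 71.3% and 58.4% were. Over peaks of any score the shares were 40% and 41.7% on chromosome 4, 18.0% and 17.5% on the Het sequences and 18.4% and 21.1% on U. The Het share was thus higher among the top 10 in both replicates, although 10 peaks are few.

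Some of these unmatched peaks of replicate 2 lay beside a site. The peak at 717835 to 717881 on chromosome 4 fell inside the run of 4 sites, 237 bp from the nearest. That at 5630256 to 5630297 on U lay 507 bp from the U site with the highest score, the 2RHet peak at 1621638 lay 1271 bp from a site and the 3RHet peak at 1935075 lay 3949 bp from a site. In all, 4 of the 9 named replicate 2 peaks and 0 of the 9 of replicate 1 were within 5 kb of a site. The nearest replicate 1 peak was 9819 bp from one. Some replicate 1 peaks did lie near a replicate 2 peak: 153894 on U (185 bp), 152689 on chromosome 4 (834 bp) and 2176048 on U (1658 bp). The remaining named replicate 1 peaks were at least 6018 bp from one. The share of all unmatched peaks, or of large-arm peaks, within 5 kb of a site was not computed. These distances are a description of 18 peaks, and the difference between the replicates was not tested.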

How the data were processed

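ORC2 ChIP-seq peak lists of 2 samples of S2-DRSC cells and the list of the whole series were used. The 1 input sample was not analysed here. The authors deposited a position and a score per peak, called with PeakSeq on FlyBase release 5 per the file headers and source columns. The sources used here give no aligner, version, threshold or control, and depth is unknown. Peaks were grouped by sequence name. Overlap meant at least 1 bp in common. Intervals on shares are exact binomial at 95%. Medians, quartiles, distances within a sequence and scores at touching pairs were computed per list. No test was run, since the series has 1 condition. Density used the span to the last called base on a sequence. Alternatives were other overlap rules, the 50% of peaks with the highest scores, peaks of at least 50 bp, merging within 1 kb and each replicate alone. The functions were tested on simulated data. The members and lists were chosen with earlier results of these data known. Named sites were all on the Het sequences, the 10 with the highest score on chromosome 4, the 5 with the highest score and the 5 widest on U, the 3 unmatched peaks of highest score per replicate and kind of sequence, and the 3 longest stretches of chromosome 4 without a site. Score and width ranges, runs within 5 kb and the wide single-replicate peaks were chosen after the values were seen. A gene table of release 6 was not used, as positions were not converted. Tools were scipy 1.17.1, pandas 2.3.3, numpy 2.4.6 and matplotlib 3.10.9 under Python 3.11.15.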

Additional observations from a re-analysis of the deposited data

How the results depend on the processing

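Of 72 recomputed values, 50 were counted as unchanged, 21 as moved and 1 changed sign. Shares were judged against their interval, and medians against the SD of the 2 replicate medians. Log2 ratios were judged against the SD over pairs, and site density against a fixed fold limit. A median of width, score or distance from 1 replicate alone always lies within the SD of the 2. Those values were therefore bound to count as unchanged and show nothing about stability. Requiring 50% of both peaks lowered the Het shares to 8.20% in replicate 1 and 7.94% in replicate 2. Among the higher-scoring 50% of each list, the share was 25.4% on the Het sequences in replicate 2 and 9.09% on U in replicate 1. The chromosome 4 shares stayed within their intervals under all 4 rules. For the shares the cause was not tested. By its construction this filter also raised the median score (mean over the replicates), to 5.97 on chromosome 4, 5.82 on Het and 5.69 on U, against 4.16, 3.95 and 3.73. Under it the median distance was 14954 bp, 59353 bp and 54586 bp on the 3, against 7710 bp, 24287 bp and 28921 bp with all peaks, and the median width was 52.5 bp on Het and 63 bp on U. Keeping peaks of at least 50 bp raised the median width to 108 bp, 94.5 bp and 175 bp, against 94.5 bp, 60.5 bp and 98 bp, and the median distance to 55596 bp on Het and 60771 bp on U. Merging peaks less than 1 kb apart gave distances of 11650 bp on chromosome 4 and 33818 bp on Het. A minimum width can only raise the median width, and merging removes every distance under 1 kb. These rises in width and in merged distance were therefore fixed by construction, and the count of 21 moved values includes them. Divided by each list's median score on the large arms, the log2 ratio of the replicates on Het was -0.087 instead of 0.0053, both within its SD. Chromosome 4 had 24.3 sites per Mb, and 58.3 and 60.8 peaks per Mb without replicate 1 and without replicate 2, since a site needs both. Without replicate 1 or 2, the medians ranged from 89 to 100 bp, 3.85 to 4.48 in score and 6727 to 8693 bp in distance on chromosome 4, 60.5 bp, 3.56 to 4.34 and 19862 to 28712 bp on Het, and 96 to 100 bp, 3.28 to 4.19 and 17543 to 40298 bp on U. Without counts, peaks found in 1 sample cannot be weighed by depth. No paired analysis was possible because the ORC2 samples form 1 group and the input was not analysed here.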
